A study of Mus musculus with 3 samples.

Results

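Transcripts of Nfe2l2, which encodes NRF2, of 7 antioxidant target genes of NRF2 and of the metallothioneins Mt1 and Mt2 were examined in Hepa1c1c7 cells. Hepa1c1c7 is a mouse hepatoma line widely used to study responses to foreign chemicals. The 10 genes were Nfe2l2, Hmox1, Gclc, Gclm, Txnrd1, Srxn1, Gsr, G6pdx, Mt1 and Mt2. They were taken by name, with earlier results of these data known, from 22911 genes with a symbol on the array. They had 12 probes: 8 genes had 1 probe each, and Txnrd1 and Mt1 had 2 each. The cells had been transfected with empty vector, with a vector for Mst1r, a receptor tyrosine kinase, or with a vector for Slpi, a secreted inhibitor of serine proteases, and were cultured for a day before RNA was prepared. The study made these arrays to see which genes respond when Mst1r or Slpi is overexpressed. Each group was 1 array, so no difference below has a replicate or a p-value. The empty vector was pCMV6-Kan/Neo, Mst1r and Slpi came as mouse open reading frame clones, and the cells are 1 established line, labelled as liver.

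In unstressed cells NRF2 is held by KEAP1, which hands it to a ubiquitin ligase for breakdown. Oxidants and electrophiles disable KEAP1, and NRF2 then collects in the nucleus, pairs with small MAF proteins and binds antioxidant response elements beside genes that make glutathione, run the thioredoxin system, supply NADPH and break down heme. Metallothioneins are small cysteine-rich proteins that bind zinc, copper and cadmium, and their genes are switched on by the zinc sensor MTF1 through metal response elements. Both groups of genes are read in liver cells as signs of oxidative or metal stress.

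Promoter windows of the members are shown first because these short elements are the feature that the 2 groups of genes are known for. Each sequence is the 250 bases before a transcript start, from RefSeq on GRCm38.p6, read 5′ to 3′ on the strand of the gene. A window was held for 7 of the 10 genes, in 9 windows in all. The antioxidant response element core was searched as TGACNNNGC on both strands, and the metal response element core as TGCACNC or TGCGCNC on both strands. Capitals mark the antioxidant response element core in Nfe2l2 (chr2:75704664-75704913, minus strand), Gclm (chr3:122245307-122245556, plus strand), Txnrd1 (chr10:82858956-82859205, plus strand) and G6pdx (chrX:74428881-74429130, minus strand).
Nfe2l2: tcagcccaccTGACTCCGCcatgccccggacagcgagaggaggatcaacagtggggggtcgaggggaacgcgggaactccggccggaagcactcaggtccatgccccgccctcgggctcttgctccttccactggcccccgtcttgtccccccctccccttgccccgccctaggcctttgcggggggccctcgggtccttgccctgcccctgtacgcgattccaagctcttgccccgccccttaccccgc
Gclm: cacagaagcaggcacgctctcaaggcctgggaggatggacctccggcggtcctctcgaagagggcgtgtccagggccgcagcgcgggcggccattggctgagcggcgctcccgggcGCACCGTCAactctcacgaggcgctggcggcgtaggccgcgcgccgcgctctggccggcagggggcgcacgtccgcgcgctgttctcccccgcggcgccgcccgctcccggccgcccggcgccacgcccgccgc
Txnrd1: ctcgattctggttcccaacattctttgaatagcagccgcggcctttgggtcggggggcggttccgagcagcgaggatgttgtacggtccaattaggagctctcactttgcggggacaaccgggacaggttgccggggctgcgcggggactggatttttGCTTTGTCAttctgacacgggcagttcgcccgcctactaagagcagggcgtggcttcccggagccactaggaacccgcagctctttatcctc
G6pdx: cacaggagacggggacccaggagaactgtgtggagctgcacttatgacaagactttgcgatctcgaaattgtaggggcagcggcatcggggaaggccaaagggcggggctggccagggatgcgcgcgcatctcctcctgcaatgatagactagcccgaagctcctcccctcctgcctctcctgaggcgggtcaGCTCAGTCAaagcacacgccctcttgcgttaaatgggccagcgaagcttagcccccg
The core began 240 bases before the start in Nfe2l2, 134 in Gclm, 92 in Txnrd1 and 57 in G6pdx. Txnrd1 had 3 windows, of which 1 held the core. The Srxn1 window held no match to it. Such a core occurs by sequence alone in 10.2% of the 32851 windows of the same length, so a match is a description of the letters and not a mapped site.

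In the metallothionein windows, Mt1 (chr8:94178839-94179088, plus strand) and Mt2 (chr8:94172368-94172617, plus strand), capitals mark the metal response element core.
Mt1: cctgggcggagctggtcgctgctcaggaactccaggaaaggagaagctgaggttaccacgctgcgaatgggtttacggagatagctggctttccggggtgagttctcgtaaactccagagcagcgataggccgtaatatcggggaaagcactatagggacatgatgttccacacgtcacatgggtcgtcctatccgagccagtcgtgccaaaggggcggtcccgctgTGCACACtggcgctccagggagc
Mt2: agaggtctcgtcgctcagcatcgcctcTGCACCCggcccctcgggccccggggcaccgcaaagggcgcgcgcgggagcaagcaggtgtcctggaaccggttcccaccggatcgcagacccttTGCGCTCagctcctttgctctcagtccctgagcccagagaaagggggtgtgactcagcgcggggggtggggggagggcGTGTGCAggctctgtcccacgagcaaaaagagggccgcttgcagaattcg
The Mt1 window held 1 match, 23 bases before the start. The Mt2 window held 3 matches, at 223, 128 and 50 bases before the start, a number reached by 1.26% of the 32851 windows, whereas 21.4% held 1 or more. The Mt2 window also held 1 antioxidant response element core, 79 bases before the start, which is not in capitals. The metal response element core was not limited to the metallothioneins: the windows of Gclm and G6pdx held 2 matches each and that of Srxn1 held 1. Mt1 and Mt2 lie close together on chromosome 8, Mt2 at chr8:94172618-94173567 and Mt1 at chr8:94178883-94180327 on GRCm38.p6. The Mt1 window runs past the start of this gene interval, because the transcript start used for it lies farther in. Its 1 match and the 3 of Mt2 are therefore not counts over the same part of each gene. The Gclm window also runs past the start of its gene interval (chr3:122245487), and the Txnrd1 window shown lies inside the gene.

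All 10 genes were well above background on all 3 arrays, and no spot of any array was saturated. Values are given as processed signal, the scanner brightness of a probe after background correction, on the arrays of empty, Mst1r and Slpi vector in this order. Brightness depends on the probe as well as the RNA, so signals of different genes were not set against each other. Differences are in log2 after each array was divided by its 75th percentile signal, which was 268, 229 and 254. The error after each difference is its SD from spots of probes printed at least 10 times, which covers spotting and scanning on an array and no variation between cultures. A difference over 2 times this SD is called larger than the spot error, and a smaller one within it.

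On these arrays the labels could not be checked by the transfected genes. The probe for Mst1r stayed under the limit for well above background throughout (4.15, 4.08 and 3.70). The brighter Slpi probe was at 6459, 3843 and 6680, a difference of 0.13 ± 0.14 for Slpi vector. Directions below are therefore those of the arrays labelled Mst1r vector and Slpi vector. Of 11 hepatocyte markers, 5 were well above background on all arrays (Afp, Alb, Apoa2, Trf and Foxa2), whereas the brightest probes of Hnf4a, Ttr, Apob, Apoa1 and Serpina1a were not. Of 11 markers of other liver cell types 7 were detected on all arrays, whereas Ptprc, Adgre1, Cdh5 and Epcam were not. No detected hepatocyte marker was 1.5-fold different on either vector array; Alb was at 0.57 ± 0.14 with Mst1r vector. Of the other markers, Des (227, 37.9 and 58.2, in row 55) and Krt19 (53.3, 28.8 and 59.2, in row 58) were 1.5-fold lower with Mst1r vector and Des with Slpi vector too. With Mst1r vector Des was at -2.35 ± 0.35, whereas the dim Krt19 was at -0.66 ± 0.74, within the spot error. Col3a1 (56.6, 64.6 and 38.3) was at 0.42 ± 0.35 with Mst1r vector and was 1.5-fold higher there than with Slpi vector, at 0.91 ± 0.35. Whether these markers bear on the values below was not tested. The arrays were on 1 slide, so slide position and group cannot be told apart.

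**Figure D1:**
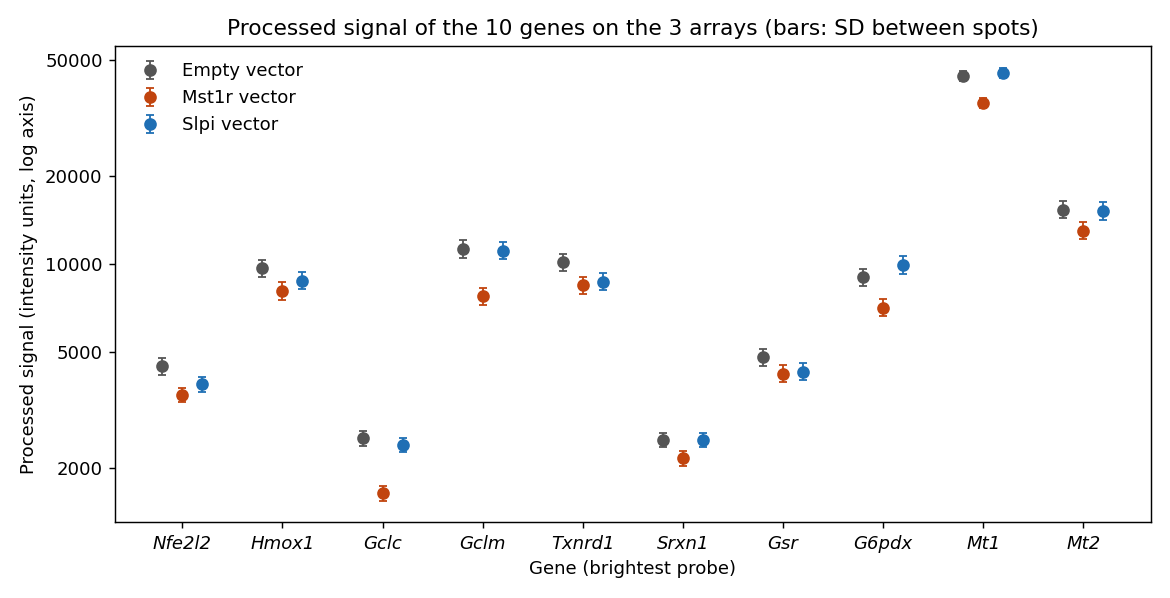
Processed signal (log axis, intensity units) of the brightest probe of each of the 10 genes on the arrays of empty vector (grey), Mst1r vector (orange) and Slpi vector (blue), with bars for the SD between spots. Before scaling the Mst1r vector point is the lowest of the 3 for each gene, and Gclc (2529, 1640 and 2397) and Gclm (11236, 7731 and 11075) have the widest gaps.

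None of the 10 genes differed by 1.5-fold or more between any pair of arrays, whereas the glutamate cysteine ligase genes Gclc and Gclm were lower with Mst1r vector by more than the spot error, Gclm not under every way of processing. With Mst1r vector against empty vector, 0 of 10 were 1.5-fold higher and 0 of 10 lower, where 3.75% of 12466 genes detected on all arrays were higher and 2.41% lower. With Slpi vector the counts were 0 and 0, where 1.05% of genes were higher and 1.02% lower. Between Mst1r and Slpi vector they were 0 and 0 as well, where 4.02% were higher and 2.59% lower. Bright probes pass this fold less often: among 3843 genes at least as bright as the dimmest member, the shares for Mst1r vector against empty vector were 1.07% higher and 0.546% lower, for Slpi vector 0.26% and 0%, and for Mst1r against Slpi vector 0.807% and 0.755%. Read against these shares, a count of 0 of 10 is close to the background. At 1.2-fold, 2 of 10 were lower with Mst1r vector and 0 higher, where 13.7% and 10.6% of all genes were. With Slpi vector 0 of 10 passed 1.2-fold in either direction, where 5.25% of all genes were lower and 3.91% higher. Between Mst1r and Slpi vector 3 of 10 were lower by 1.2-fold and 0 higher, where 15.5% and 12.2% were.

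The 10 genes as a group lay near the median of all genes. Their median difference was -0.06 with Mst1r vector, beside -0.05 for all 12466 genes. With Slpi vector it was 0.03, beside 0.01 for all genes. Between Mst1r and Slpi vector it was -0.06, beside -0.05. The sign of single members depended on the scaling: with Slpi vector all 10 lay above 0 when arrays were scaled by their median (0.02 to 0.38) and all 10 below 0 when scaled by spike-in RNA (-0.38 to -0.02). With Mst1r vector all 10 were below 0 with spike-in scaling (-0.50 to -0.07). The comparisons with empty vector share 1 array, so they are not independent of each other.

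Nfe2l2, the gene for NRF2 itself, was at 4463, 3554 and 3867 on the arrays of empty, Mst1r and Slpi vector. The scaled difference from empty vector was -0.10 ± 0.13 for Mst1r and -0.13 ± 0.13 for Slpi. Both were within the spot error, and the arrays with Mst1r and Slpi vector differed from each other by 0.03. NRF2 is controlled mainly through the stability of its protein, which these arrays do not measure.

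Gclc encodes the catalytic subunit and Gclm the modifier subunit of glutamate cysteine ligase, which carries out the rate-limiting step of glutathione synthesis. Gclc was at 2529 (empty), 1640 (Mst1r) and 2397 (Slpi). The array with Mst1r vector was the low one, by -0.39 ± 0.12 against empty vector and -0.40 ± 0.12 against Slpi vector, and the other arrays differed by 0.00 ± 0.12. A value as low as that of Gclc against empty vector was found in 6.14% of all genes. Gclm was at 11236, 7731 and 11075 in the same order. It was again the array with Mst1r vector that was low, by -0.31 ± 0.14 against empty vector and -0.37 ± 0.14 against Slpi vector, and 10.2% of all genes were at or below the first value. Gclm with Slpi vector was at 0.06 ± 0.14. Gss, glutathione synthetase, which completes the pathway, was at 2842, 2716 and 2790, with a difference of 0.16 ± 0.12 for Mst1r vector.

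Gsr, glutathione reductase, which returns oxidised glutathione to its reduced form with NADPH, was at 4786, 4200 and 4275. Its differences of 0.04 ± 0.14 with Mst1r vector and -0.08 ± 0.14 with Slpi vector were within the spot error. G6pdx, the enzyme that opens the pentose phosphate pathway and so supplies NADPH, was at 8994, 7072 and 9914. After scaling it was lowest with Mst1r vector and highest with Slpi vector, except that spike-in scaling put Slpi vector at -0.02, and the differences from empty vector, -0.12 ± 0.14 and 0.22 ± 0.14, were each within the spot error. Between Mst1r and Slpi vector the difference was -0.34 ± 0.14, larger than the spot error.

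Txnrd1, Srxn1 and Hmox1 did not differ beyond the spot error in any comparison with the scaling used here. Txnrd1, thioredoxin reductase, was at 10110, 8445 and 8680 by its brighter probe, with differences of -0.03 ± 0.14 and -0.14 ± 0.14. The second Txnrd1 probe was at 3896, 3035 and 3478, with differences of -0.13 ± 0.12 and -0.09 ± 0.12. Srxn1, the sulfiredoxin that repairs over-oxidised peroxiredoxins, was at 2494, 2159 and 2495, and its differences were 0.02 ± 0.12 and 0.08 ± 0.12. Hmox1, heme oxygenase, which breaks heme down to biliverdin, iron and carbon monoxide and is among the most inducible of these genes, was at 9661, 8067 and 8750. Its differences, -0.03 ± 0.14 with Mst1r vector and -0.06 ± 0.14 with Slpi vector, were within the spot error.

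With the processing used here the metallothionein genes differed from empty vector within the spot error on either array. Under some alternatives Mt1 passed it, at -0.17 with Mst1r vector (normexp background correction) and 0.28 with Slpi vector (median scaling). Mt1 was at 44100, 35410 and 45152. The scaled differences from empty vector were -0.09 ± 0.08 and 0.11 ± 0.08, each within the spot error, while Mst1r vector against Slpi vector gave -0.20 ± 0.08, larger than it. A second Mt1 probe, for a predicted transcript, was at 77.5, 63.2 and 79.0, with differences of -0.07 ± 0.35 and 0.11 ± 0.22. Mt2 was at 15312, 12976 and 15169, with differences of -0.01 ± 0.14 and 0.06 ± 0.14. For Mt2 no pair of arrays differed beyond the spot error. The genes whose differences lay nearest to the mean of Mt1 and Mt2 (-0.05 and 0.09) were Ift46, Ctu2, Ddx41, Mrpl1 and Ppib, by Euclidean distance over the differences from empty vector on 3 arrays. As many as 600 genes lay within a distance of 0.05, so the likeness picks out no small group.

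**Figure D2:**
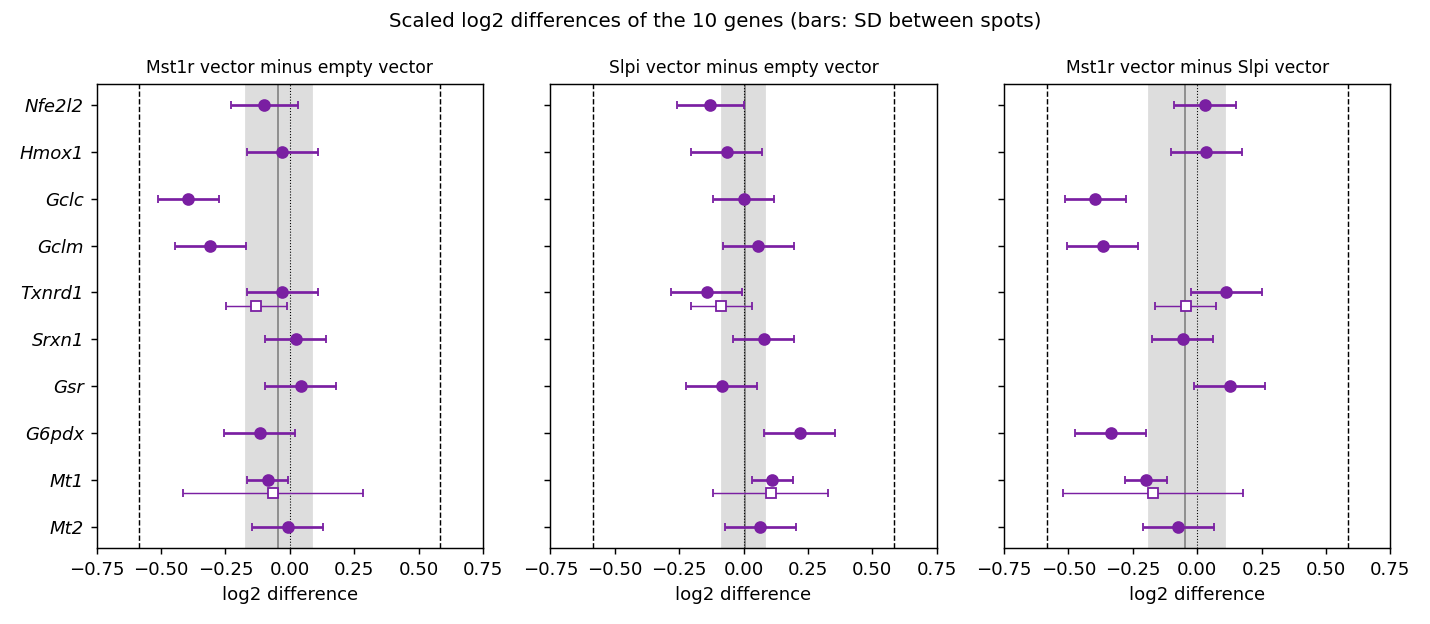
Scaled log2 differences of the 10 genes in the 3 comparisons. Filled points are brightest probes, open squares second probes, bars the SD between spots, dashed lines 1.5-fold, the grey band the middle of all detected genes between their lower and upper quartile and the grey line their median. Gclc (-0.39) and Gclm (-0.31) lie left of the band with Mst1r vector, and no point reaches a dashed line.

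In counts, 2 of 10 genes (Gclc and Gclm) were lower with Mst1r vector than with empty vector by more than the spot error and 0 were higher, where 8.90% of all genes were lower and 6.74% higher. With Slpi vector 0 of 10 were lower and 0 higher, where 1.76% and 2.25% of all genes were. Between Mst1r and Slpi vector, 4 of 10 (Gclc, Gclm, G6pdx and Mt1) were lower and 0 higher, where 11.1% of all genes were lower and 6.87% higher. Among the 3843 bright genes the shares lower and higher were 9.97% and 5.52% for Mst1r vector, 1.28% and 2.52% for Slpi vector, and 13.1% and 5.83% between the vectors. The SD of a difference between probes of 1 gene, over 930 genes with several bright probes, was 0.107, 0.110 and 0.123 in the 3 comparisons, which is about the size of the spot error. These calls depended on the processing. Against empty vector Gclc passed the spot error under every alternative tried, whereas Gclm was at -0.26 with normexp background correction, within it. With normexp Mt1 passed it instead, at -0.17, so 2 of 10 were lower, where 8.77% of all genes were. With Slpi vector, spike-in scaling put 5 of 10 lower (Nfe2l2, Hmox1, Gclc, Txnrd1 and Gsr), where 30.2% of all genes were, and median scaling put 3 of 10 higher (Srxn1, G6pdx and Mt1), where 17.9% were. Spike-in scaling left only Gclc lower with Mst1r than with Slpi vector (-0.26 ± 0.12), where 4.22% of all genes were, with Gclm at -0.23, G6pdx at -0.20 and Mt1 at -0.07. Mt1 was also within the spot error in this comparison with the percentile over detected probes (-0.16).

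The regulators of NRF2 were then read from a list of 16 genes, of which 14 were detected on all arrays. With Mst1r vector 0 of 14 were 1.5-fold higher and 1 lower, where 3.75% and 2.41% of all genes were. The median was 0.10 beside -0.05 for all genes. The low gene was Btrc, an adaptor of a ubiquitin ligase that also targets NRF2, at 102, 50.8 and 72.4, a difference of -0.78 ± 0.35 (-0.37 with normexp). Its second probe was at 34.9, 30.6 and 36.8, a difference of 0.04 ± 0.74, so the probes did not give the same value. Keap1 was at 2672, 2331 and 2566, with differences of 0.03 ± 0.12 and 0.02 ± 0.12. Sqstm1, whose protein p62 binds KEAP1, was at 36956, 45653 and 35894, with 0.54 ± 0.08 for Mst1r vector by this probe and 0.42 ± 0.14 by its second. The small MAF genes Maff, Mafk and Mafg were at 0.53 ± 0.12, 0.41 ± 0.16 and 0.24 ± 0.14 with Mst1r vector. Keap1, Sqstm1 and the MAF genes are given because of their roles and were chosen after their values were seen. No gene of the 14 passed 1.5-fold with Slpi vector, where 1.05% of all genes were higher and 1.02% lower. These shares hold for the lists below too.

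Of 42 other NRF2 targets 41 had a probe and 37 were detected on all arrays. With Mst1r vector 1 of the 37 was at least 1.5-fold higher (Abcc2) and 3 were lower (Gsta3, Gsta4 and Gpx2). Of all genes 3.75% were higher and 2.41% lower. The median of the targets, -0.18, lay below that of all genes, -0.05. Of the 37, 10 lay above 0 and 27 below, where 60.1% of all genes were below 0. Among those above was Osgin1, at 778, 893 and 763, a difference of 0.43 ± 0.16, larger than the spot error. With Slpi vector 0 of 37 passed the fold in either direction and the median was -0.04. Nqo1, the quinone reductase often used as a readout of NRF2, was at 704, 515 and 590, with differences of -0.22 ± 0.16 and -0.18 ± 0.16, within the spot error.

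Gsta3, a glutathione transferase that conjugates electrophiles, was at 785 (empty), 362 (Mst1r) and 699 (Slpi). The array with Mst1r vector stood apart, at -0.88 ± 0.16 against empty vector by this probe and -0.83 ± 0.19 by the second, and the array with Slpi vector was at -0.09 ± 0.16. Gsta4, which detoxifies the lipid peroxidation product 4-hydroxynonenal, was at 1399, 721 and 1338, a difference of -0.73 ± 0.14 for Mst1r vector. Gpx2, a glutathione peroxidase, was dim at 72.9, 38.4 and 70.4, with a difference of -0.70 ± 0.35 for Mst1r vector, past the fold but within the spot error, and of -0.26 with normexp. Gsta2 was well above background with empty (68.1) and Slpi vector (59.0) but not with Mst1r vector (19.2). Its measured difference for Mst1r vector against empty vector was -1.59 ± 0.69, which rests on dim spots.

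Abcc2, the pump that exports glutathione conjugates and bilirubin glucuronides from liver cells, was at 101 (empty), 198 (Mst1r) and 64.8 (Slpi). The arrays of the vectors lay on opposite sides of empty vector, at 1.195 ± 0.22 (Mst1r) and -0.57 ± 0.22 (Slpi). With normexp the value for Slpi vector was -0.26, within the spot error. Other exporters on the list had values of -0.34 ± 0.14 for Abcc3 (1326, 890 and 1344) and -0.35 ± 0.12 for Abcc4 (1921, 1285 and 1699) with Mst1r vector, so of these 3 only Abcc2 was above empty vector. Gsta3 and Abcc2, the targets with the lowest and the highest difference on the list, each held 1 antioxidant response element core (capitals) in their windows, Gsta3 at chr1:21240335-21240584, plus strand and Abcc2 at chr19:43782058-43782307, plus strand.
Gsta3: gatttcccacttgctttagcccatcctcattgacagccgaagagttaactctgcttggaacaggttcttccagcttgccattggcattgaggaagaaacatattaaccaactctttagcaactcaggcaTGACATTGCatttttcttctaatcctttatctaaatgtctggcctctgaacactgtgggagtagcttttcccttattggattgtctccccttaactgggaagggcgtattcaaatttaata
Abcc2: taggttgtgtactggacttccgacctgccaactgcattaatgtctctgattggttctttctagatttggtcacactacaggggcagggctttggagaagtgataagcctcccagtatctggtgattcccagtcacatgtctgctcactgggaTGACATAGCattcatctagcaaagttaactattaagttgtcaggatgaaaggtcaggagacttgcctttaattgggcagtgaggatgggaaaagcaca
The core began 121 bases before the start in Gsta3 and 98 in Abcc2. These windows were picked for the differences of their genes, so what they share says nothing of the list.

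The glutathione transferases were set apart as a group after their values were seen. Of 10 listed, 8 were detected on all arrays, and all 8 of these were below 0 with Mst1r vector, with a median of -0.33 and a range from -0.88 to -0.16, where 60.1% of all genes were below 0. With Slpi vector 6 of the 8 were below 0, where 48.1% of all genes were, and the median was -0.08. Gstm1 was at 10744, 7096 and 9668, a difference of -0.37 ± 0.14 for Mst1r vector, and its second probe gave -0.40 ± 0.12. Genes of this family are close in sequence, and whether their probes cross-hybridise was not tested, so the 8 values may not be independent.

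**Figure D3:**
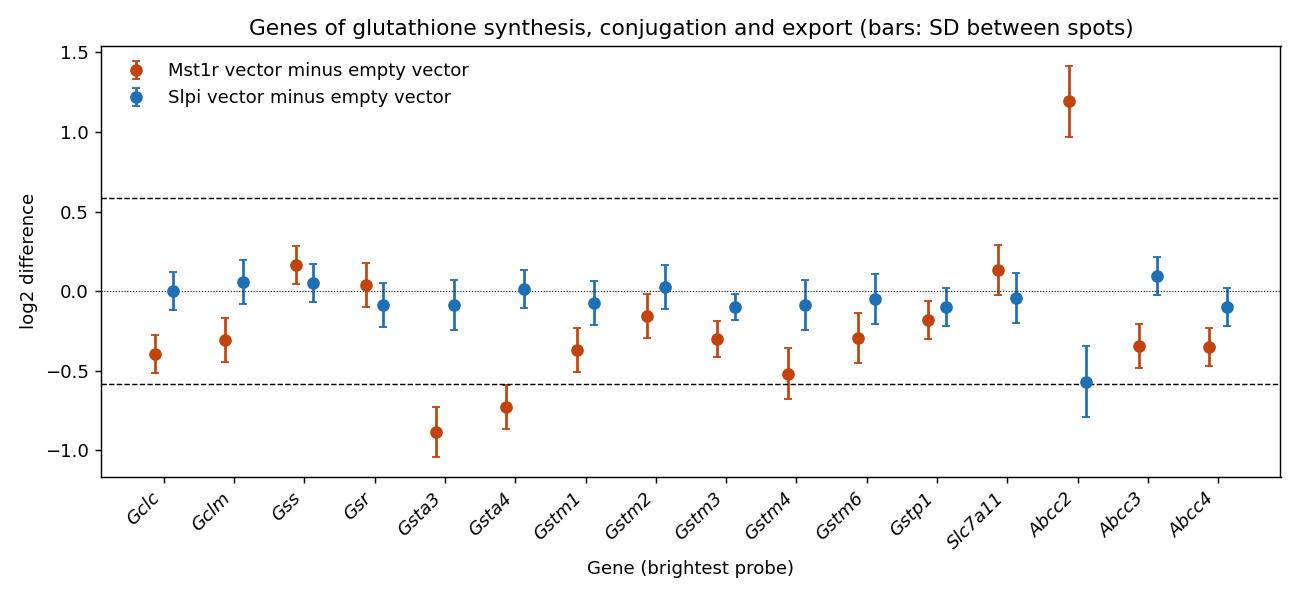
Scaled log2 difference from empty vector of genes of glutathione synthesis, conjugation and export with Mst1r vector (orange) and Slpi vector (blue), bars for the SD between spots and dashed lines for 1.5-fold. With Mst1r vector Gclc, Gclm and the 8 transferases lie below 0 and Abcc2 at 1.195, whereas with Slpi vector every gene but Abcc2 (-0.57) lies between -0.10 and 0.10.

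Of 26 further glutathione and thioredoxin enzymes 23 were detected. With Mst1r vector 0 were 1.5-fold higher and 1 lower, where 3.75% and 2.41% of all genes were, with a median of -0.13. The low gene was Txnip, an inhibitor of thioredoxin that follows glucose supply, at 1980, 1098 and 1842, a difference of -0.62 ± 0.12. Its dimmer second probe gave -0.40 ± 0.35. Txnrd3, a thioredoxin reductase of testis, was at -0.49 ± 0.19 and Txn2, the mitochondrial thioredoxin, at -0.18 ± 0.14 and -0.34 ± 0.12 by its probes, values that were seen before these genes were chosen. Sesn2, the highest gene of the list with Mst1r vector, was at 0.43 ± 0.14. At 1.2-fold 2 of the 23 were higher and 4 lower with Mst1r vector, where 10.6% and 13.7% of all genes were. On the Slpi vector array 0 of 23 passed the fold.

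Among metal response genes 1 passed the fold. Of 23 listed 22 were detected, 0 of them 1.5-fold higher and 1 lower with Mst1r vector, where 3.75% and 2.41% of all genes were. The median was -0.05, the same as for all genes to 2 decimals. Mtf1, the zinc sensor, was at 1867, 1527 and 1766 by its brightest probe, with differences of -0.06 ± 0.12 and 0.00 ± 0.12. Slc30a1, the zinc exporter that is the other well known MTF1 target, was at 260, 180 and 247, a difference of -0.30 ± 0.19 with Mst1r vector. The gene past the fold was Slc39a8, an importer of zinc, manganese and cadmium, at 292, 163 and 255, a difference of -0.61 ± 0.19 (second probe -0.36 ± 0.44, and -0.47 by the first with normexp). With Slpi vector 0 of 22 passed the fold.

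Heme and iron genes, the neighbours of Hmox1 in function, numbered 17, of which 16 were detected. With Mst1r vector 0 were 1.5-fold higher and 1 was lower, where 3.75% and 2.41% of all genes were, and the median was -0.13. The low gene was Slc40a1, ferroportin, the exporter of iron from cells, at 451 (empty), 180 (Mst1r) and 405 (Slpi). Mst1r vector was the low array, at -1.09 ± 0.19, and Slpi vector was at -0.08 ± 0.16. Of 10 pentose phosphate genes 8 were detected, 0 higher and 1 lower beside the same shares of all genes, with a median of -0.20. The low gene was G6pd2, a retrotransposed copy of G6pdx, at 221, 118 and 254, a difference of -0.67 ± 0.22 (-0.46 with normexp), and whether its probe also binds G6pdx transcripts was not tested. With Slpi vector 0 genes of either list passed the fold.

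**Figure D4:**
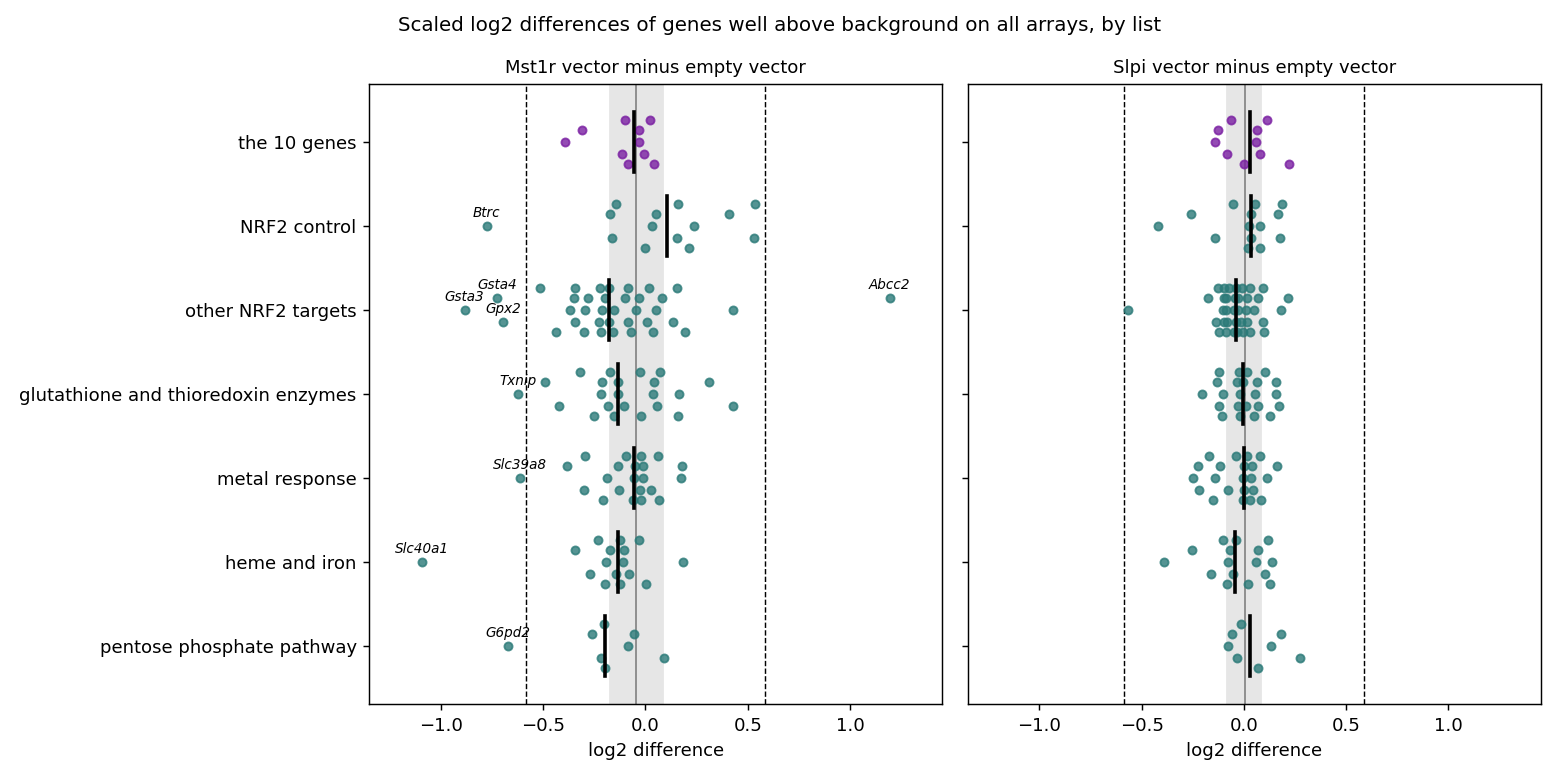
Scaled log2 difference from empty vector for each detected gene of the 7 lists (1 point per gene, brightest probe), with black bars for list medians, dashed lines for 1.5-fold and the grey band between the quartiles of all detected genes. With Mst1r vector the 10 genes lie inside the dashed lines, while Slc40a1 (-1.09), Gsta3 (-0.88) and Abcc2 (1.195) lie farthest outside. With Slpi vector no point passes them.

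Spots in the upper part of the array passed the fold more often than the others. In rows 1 to 128, 4.70% of genes were 1.5-fold higher and 3.55% lower with Mst1r vector, against 3.26% and 1.81% in the rows after them. With Slpi vector it was 2.25% and 2.43% against 0.427% and 0.281%. Of the 10 genes, 9 had their brightest probe in these later rows, Gclc in row 248 and Gclm in row 331, and Srxn1 in row 44. Gsta3, Abcc2, Gpx2, Slc39a8 and Slc40a1 lay in rows 267, 303, 243, 355 and 261, whereas Gsta4, Txnip, G6pd2 and Btrc lay in rows 39, 82, 26 and 86. Gsta2 and Maff were also in the upper part, in rows 71 and 2, whereas Mafk and Mafg lay in rows 284 and 325.

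**Figure D5:**
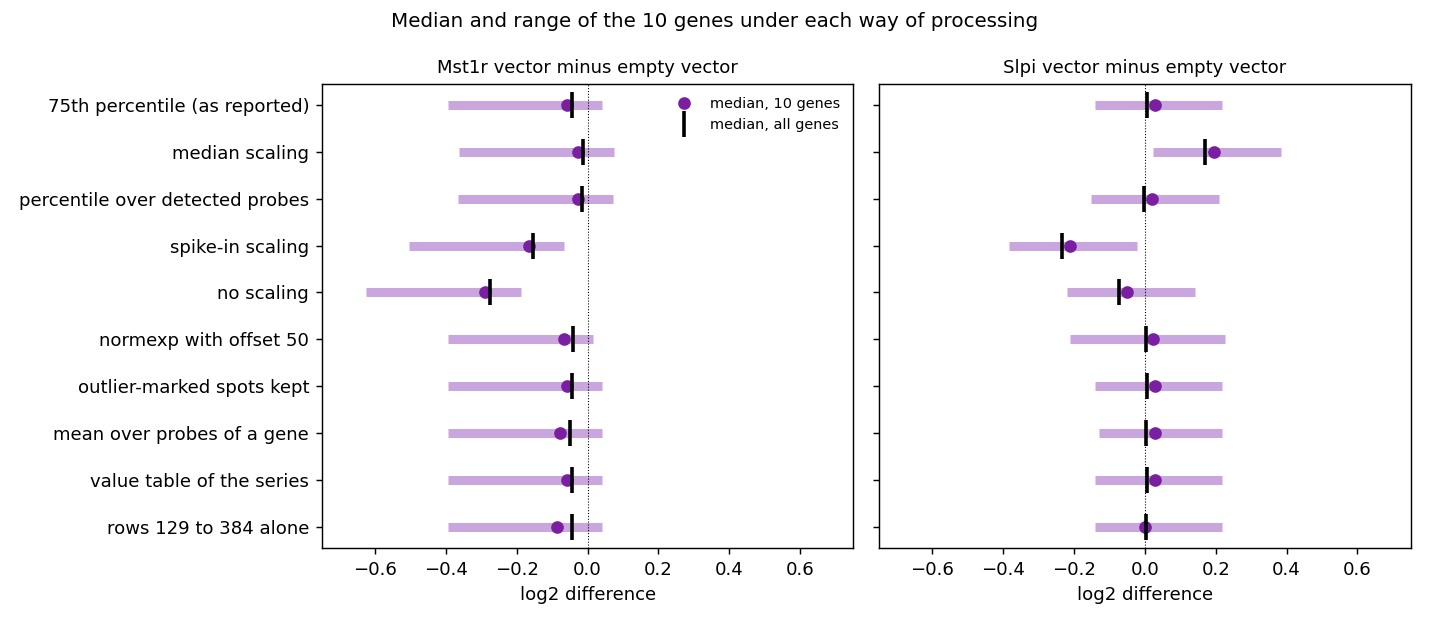
Median (points) and range (bars) of the log2 differences of the 10 genes under each way of processing, with the median of all detected genes (black ticks). Each of the 5 scalings shifts every gene of an array by the same amount, so the distance between the medians cannot change. With Mst1r vector the median of the 10 genes ran from -0.03 to -0.29, at a fixed distance of -0.01 from all genes. With Slpi vector this distance was 0.02. Other settings can change it. With Mst1r vector it was -0.02 (normexp), -0.03 (mean over probes of a gene) and -0.04 (later rows alone, 9 genes). With Slpi vector it was 0.02, 0.03 and -0.002 in the same order.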

How the data were processed

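RNA of 3 transfected cultures was hybridised to Agilent SurePrint G3 mouse arrays in 1 colour, with 62976 spots per array. The deposited values are spot intensities from Agilent Feature Extraction, version 12.0.3.1 per the labels, in arbitrary units; the processed signal is background-corrected by the authors' software and was not yet scaled. The deposited value table of the series holds the same intensity, with 99.9% of values within 0.01 in log2, and 18 of its columns, of other samples, were not used. Log2 processed signal minus the 75th percentile over the 56605 non-control probes of an array was computed here, without spots marked as outliers. Probes were named through accessions in a RefSeq gene table (32994 matched), and 1 probe per gene, the brightest on average, was kept. Genes well above background on all arrays (12466) were the background. The array total is not a read depth, and 1 array per group limits the precision. Named were the 10 members, genes of 8 other lists (6 of pathways, 2 of cell type markers; 1 marker is not reported here) at least 1.5-fold different in any comparison, the 5 genes nearest to Mt1 and Mt2 and the transfected genes. The members and lists were chosen with earlier results of these data known. Alternatives were other scalings, normexp with offset 50 in limma 3.58.1 (R 4.3.3) on the median spot signal, since the mean was not used here, kept outlier spots, all probes of a gene, the value table, the rows after row 128 alone, a signal over 50, 2-fold and, added after the data were seen, 1.2-fold. Scripts were tested on simulated data with Python 3.11.15, numpy 2.4.6 and pandas 2.3.3.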

Additional observations from a re-analysis of the deposited data

How the results depend on the processing

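No paired analysis was possible because each group held 1 array. The scaling sets the level of all differences: the median of all genes with Mst1r vector moved from -0.05 to -0.28 without scaling and -0.15 with spike-in scaling, and with Slpi vector from 0.01 to 0.17 with median scaling and -0.24 with spike-in scaling. The median of the 10 genes moved with it, to -0.29 without scaling for Mst1r vector against empty vector, to 0.19 with median scaling and -0.21 with spike-in scaling for Slpi vector, and to -0.22 without scaling for Mst1r against Slpi vector. Without scaling 1 of the 10 genes (Gclc) was 1.5-fold lower with Mst1r vector than with empty vector, where 7.92% of all genes were. At 1.2-fold, 2 of the 10 were lower with Mst1r vector, where 13.7% of all genes were, and 3 were lower than with Slpi vector, where 15.5% were. Of the other NRF2 targets, 6 were lower with Mst1r vector without scaling, 0 at 2-fold and 12 at 1.2-fold, and 2 were higher at 1.2-fold, where 7.92%, 0.562%, 13.7% and 10.6% of all genes were. With Slpi vector 1 was lower with spike-in scaling, 1 without scaling and 1 at 1.2-fold, where 2.90%, 1.24% and 5.25% of all genes were. Between Mst1r and Slpi vector, 6 were lower without scaling, 0 at 2-fold and 10 at 1.2-fold, and 3 were higher at 1.2-fold, where 5.47%, 0.57%, 15.5% and 12.2% were. With the rows after row 128 alone the difference of Btrc was 0.043 for Mst1r vector minus empty vector, because only its second probe lies there, and Srxn1 had no probe. The counts beyond the spot error were recomputed after the data were seen. Without scaling 5 of the 10 genes (Nfe2l2, Gclc, Gclm, G6pdx and Mt1) were lower with Mst1r vector than with empty vector, where 43.7% of all genes were. With spike-in scaling 3 were (Gclc, Gclm and Mt1), where 21.3% of all genes were. With Slpi vector 5 were lower with spike-in scaling and 3 higher with median scaling, where 30.2% and 17.9% of all genes were. Between Mst1r and Slpi vector 1 was lower with spike-in scaling, where 4.22% were. With normexp 2 of the other targets were 1.5-fold lower with Mst1r vector in place of 3, Gpx2 being lost, and Slc39a8, G6pd2 and Btrc no longer passed the fold, where 0.963% of all genes were lower. The SD between spots was that of the processed signal in each case. Signal over background limits Gpx2, Btrc and the second Mt1 probe, whose SDs are large.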

Other observations

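Among the relatives of NRF2 on the list of its regulators, Nfe2l1 was at 4636 (empty), 4400 (Mst1r) and 4645 (Slpi) by its brighter probe, and at 201, 247 and 205 by its dimmer one, which gave 0.15 ± 0.14 and 0.52 ± 0.22 for Mst1r vector. The Nfe2 probe, in row 23, was at 193 with Mst1r vector and not well above background with empty (4.33) or Slpi vector (3.80), at least 11.96-fold higher than on the empty vector array. Glrx2, a mitochondrial glutaredoxin, was at 147980, 156557 and 150704 by its brighter probe and at 5410, 4253 and 5353 by its other, which gave 0.31 ± 0.08 and -0.12 ± 0.14 for Mst1r vector, so its probes pointed in different directions. These genes were chosen after their values were seen. Hmox2, the constitutive heme oxygenase, was at 2074, 1465 and 1855, a difference of -0.27 ± 0.12 for Mst1r vector by this probe and -0.36 ± 0.16 by its second, while Hmox1 was at -0.03 ± 0.14.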
